A study of Homo sapiens with 4 samples.

Results

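The TCF/LEF genes TCF7, TCF7L1, TCF7L2 and LEF1 and the beta-catenin gene CTNNB1 were examined in the human prostate cancer cell line LNCaP, an androgen-responsive line that was the only cell line measured. These 5 of 20136 protein-coding genes were chosen by name, and every peak that shared at least 1 bp with a gene's hg19 span plus 50 kb on each side was kept. The windows held 28 of 57623 peaks of acetylated histone H3 lysine 27 (H3K27Ac, a mark of active promoters and enhancers) in the vehicle list, 26 of 60752 in the list with DHT, and 24 of 20955 TCF7L2 peaks. The H3K27Ac -DHT library came from cells at passage 20 in charcoal-stripped serum, which is depleted of androgen, with ethanol vehicle. The H3K27Ac +DHT library came from cells of the same passage and serum that received 10 nM of the androgen dihydrotestosterone (DHT) for 4 h. The TCF7L2 library came from cells at passage 15 in FBS that was not stripped, with no added androgen. Its positions were therefore compared with H3K27Ac. Its heights are given beside those of H3K27Ac, or as percentiles, and no ratio between them was taken. Each condition was 1 library, so nothing was tested and no p-value is given, and a difference between the vehicle and DHT lists cannot be told apart from a difference between 2 libraries. A peak's value is its height, the largest number of overlapping sequence tags in it, and the number of reads behind each list is unknown.

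T-cell factor and lymphoid enhancer factor proteins bind DNA through an HMG box and act at the end of the Wnt pathway. Without a Wnt signal a destruction complex of APC, AXIN, GSK3 and casein kinase marks beta-catenin for degradation, and the TCF/LEF proteins recruit TLE corepressors. With a signal, beta-catenin enters the nucleus, binds them and brings BCL9, Pygopus and histone acetyltransferases to the target genes, while a separate pool of beta-catenin links cadherins to the cytoskeleton. TCF7 and LEF1 are best known from lymphocytes, TCF7L1 mostly as a repressor in stem cells, and TCF7L2 as the main effector in epithelia.

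The label of a luminal prostate line was checked against promoter acetylation. An H3K27Ac peak lay over the promoter of 9 of 10 luminal genes with vehicle and 10 of 10 with DHT, of 0 of 4 basal genes, of 0 of 7 lymphocyte genes, and of 1 of 5 stromal and endothelial genes in both lists, the 1 being the endothelial cadherin CDH5 with 47 tags in each. Over all protein-coding genes the share was 53.3% with vehicle and 54.5% with DHT. The luminal genes KRT8 and KRT18 had equal promoter heights, 94 tags with vehicle and 112 with DHT, and may share 1 peak. A promoter was taken as 1000 bp before to 100 bp after the start of any basic protein-coding transcript.

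The DNA under the TCF7L2 peaks is shown first, since the antibody's target is itself a member of the family and its binding letters can be read in the reference. Sequences are GRCh37, plus strand, 5′ to 3′, and capitals mark the TCF motif searched here, CTTTGNN on either strand with each N standing for A or T. The first line is a site in exon 1 of TCF7 under its promoter peak of 39 tags, at chr5:133450377-133450405. The next is the center of the peak of 91 tags in intron 3 of TCF7, at chr5:133460869-133461069, where the motif lay 0 bp from the center.
TCF7 promoter site: gccggcggcgcCTTTGATgttccgacccg
TCF7 intron 3: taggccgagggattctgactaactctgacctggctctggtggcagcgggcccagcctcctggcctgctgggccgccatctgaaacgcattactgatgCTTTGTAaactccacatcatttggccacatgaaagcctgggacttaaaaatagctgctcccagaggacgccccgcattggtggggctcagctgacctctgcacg
At TCF7L2 itself, the first line is a site in exon 1 under the promoter peak of 78 tags, at chr10:114710073-114710101, 3 bp from the peak's center. The second is the center of the peak of 97 tags in intron 4, at chr10:114767029-114767229, where the motif stood 95 bp from the center.
TCF7L2 promoter site: atcagcgccgcCTTTGAActgaaaagctc
TCF7L2 intron 4: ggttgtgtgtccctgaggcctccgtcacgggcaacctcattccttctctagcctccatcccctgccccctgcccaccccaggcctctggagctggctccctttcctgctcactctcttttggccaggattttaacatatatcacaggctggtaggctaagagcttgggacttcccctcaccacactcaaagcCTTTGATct
The tallest member peaks, of 126 tags at chr10:114847009-114847209 and of 130 tags at chr10:114853279-114853479, held no such site within 100 bp of the center. In the peak of 130 tags capitals mark TGACTCA and its reverse complement TGAGTCA, the sequence known as the site of AP-1 factors, which was searched after the sequences had been read.
TCF7L2 intron 5, 126 tags: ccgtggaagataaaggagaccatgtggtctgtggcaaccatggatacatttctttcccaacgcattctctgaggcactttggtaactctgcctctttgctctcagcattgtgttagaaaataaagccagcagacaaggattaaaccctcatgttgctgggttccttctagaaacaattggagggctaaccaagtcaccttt
TCF7L2 intron 5, 130 tags: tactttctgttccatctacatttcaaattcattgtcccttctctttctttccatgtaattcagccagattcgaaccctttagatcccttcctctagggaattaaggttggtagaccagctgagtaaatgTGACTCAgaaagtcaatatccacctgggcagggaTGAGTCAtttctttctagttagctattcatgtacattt
For LEF1 and CTNNB1 the peaks of 60 tags in intron 3 of LEF1 (chr4:109038709-109038909) and of 36 tags past the end of CTNNB1 (chr3:41307499-41307699) are given, since both carried the form CTTTGAT, on opposite strands, near the center.
LEF1 intron 3: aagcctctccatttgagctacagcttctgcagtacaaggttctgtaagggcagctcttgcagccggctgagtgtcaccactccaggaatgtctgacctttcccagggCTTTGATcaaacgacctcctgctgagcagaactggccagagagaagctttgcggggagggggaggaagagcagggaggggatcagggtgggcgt
CTNNB1 downstream: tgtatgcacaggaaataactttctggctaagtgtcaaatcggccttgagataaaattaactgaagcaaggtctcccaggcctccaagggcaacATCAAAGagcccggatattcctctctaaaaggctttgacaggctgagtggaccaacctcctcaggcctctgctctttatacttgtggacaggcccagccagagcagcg

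All 5 genes had a TCF7L2 peak in the window, as did 66.8% of all protein-coding genes with the same window. Over a promoter a TCF7L2 peak was found at 3 of the 5, TCF7, TCF7L2 and CTNNB1, against 17.7% of all genes. H3K27Ac lay over the promoter of TCF7L2, LEF1 and CTNNB1 in both lists, 3 of 5 genes against 53.3% of all genes with vehicle and 54.5% with DHT. Within the gene itself, 4 of 5 had an H3K27Ac peak in either list, against 70.6% of all genes, and TCF7 was the exception. Inside the gene span itself, TCF7L2 held 9 TCF7L2 peaks, LEF1 3, TCF7 and TCF7L1 2 each and CTNNB1 1. In the same spans the vehicle list held 6 H3K27Ac peaks at LEF1 and at CTNNB1, 4 at TCF7L2, 1 at TCF7L1 and 0 at TCF7. In the window, TCF7, TCF7L1, LEF1 and CTNNB1 had 3 TCF7L2 peaks each, at percentile 79.2 of all genes. Their windows differ in length, from 137 kb at TCF7 to 277 kb at TCF7L1. Per 100 kb of window they stood at percentile 82.3 (TCF7), 75.7 (CTNNB1), 66.2 (LEF1) and 62.6 (TCF7L1).

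**Figure D1:**
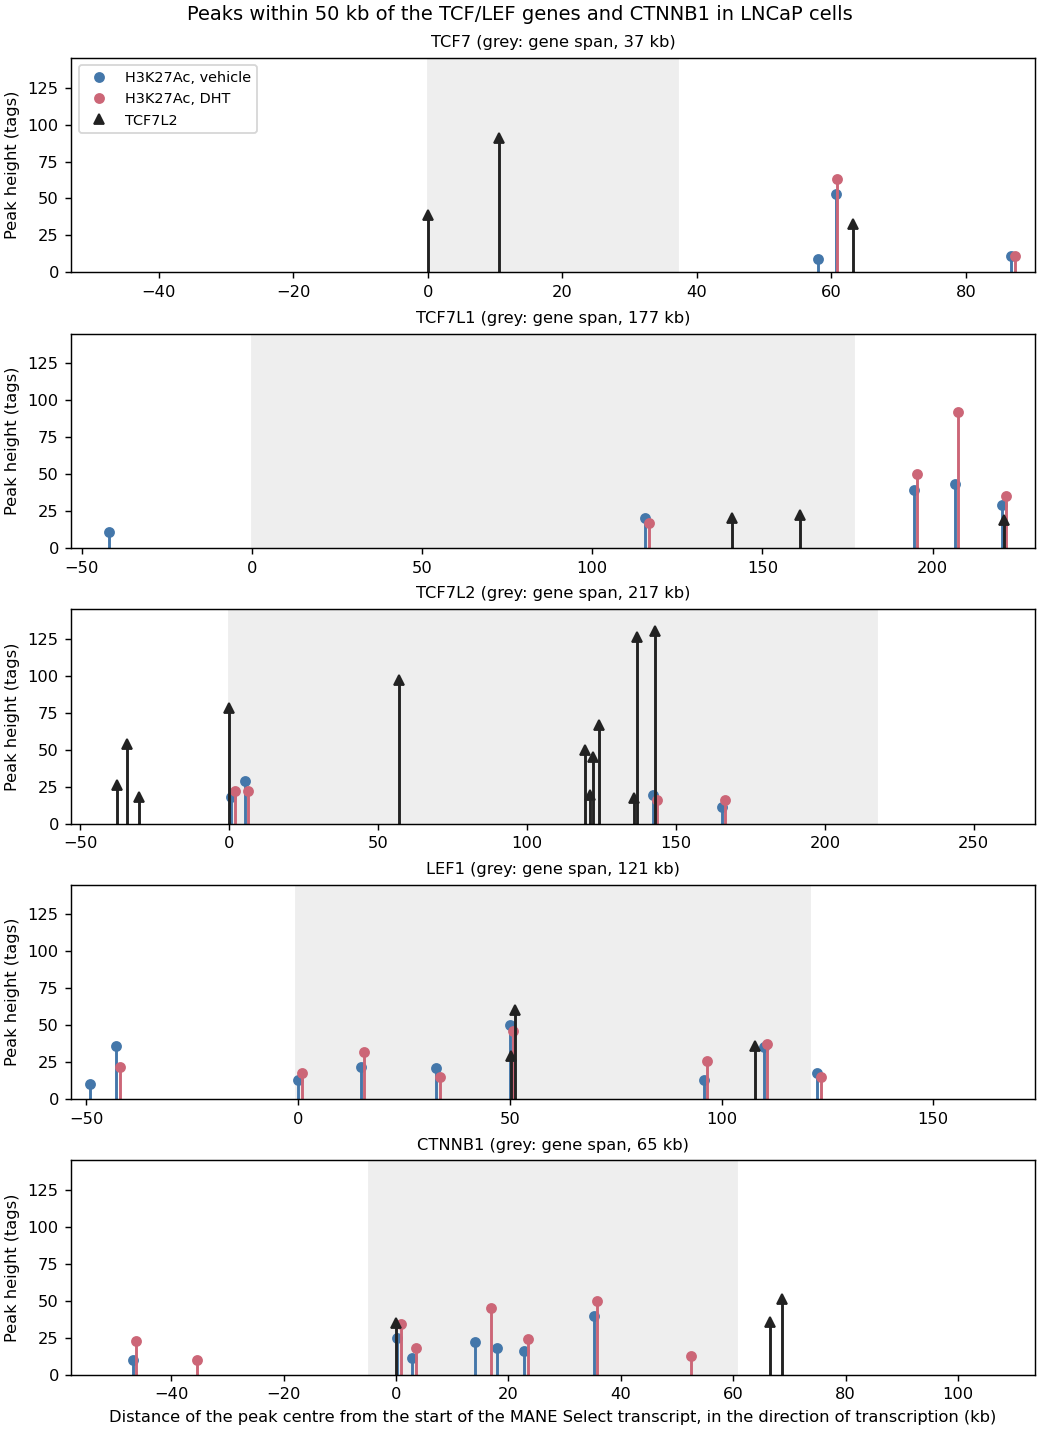
Height in tags (vertical axis) of every peak in the window of each gene, against the distance of its center from the start of the MANE Select transcript in kb, read in the direction of transcription, with the gene span in grey. Triangles are TCF7L2 peaks and circles are H3K27Ac peaks, which are drawn slightly apart for vehicle and DHT. The 7 TCF7L2 peaks in intron 5 of TCF7L2 stand together 119.6 to 143 kb from the start, and TCF7 shows no circle in its span.

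TCF7L2 (chr10:114710006-114927437, plus strand) had 12 TCF7L2 peaks in a window of 317 kb. Only 0.874% of genes (176 of 20136) had 12 or more, and per 100 kb of window the gene's 3.78 peaks stood at percentile 93.8 of all genes. From upstream to downstream the heights were 26, 54 and 18 tags at -37.6 to -30.3 kb from the start, 78 tags over the promoter, 97 tags in intron 4, and 50, 19, 45, 67, 17, 126 and 130 tags in intron 5. The peak of 130 tags (95% Poisson interval 109 to 154, for counting error alone here and below) ranked 1176 in the TCF7L2 list, and the peak of 126 tags (105 to 150.0) ranked 1258. The intron 5 group covered 24.4 kb and held 454 of the summed 727 tags of the window (62.4%). Occupancy was therefore concentrated well inside the gene, away from its start.

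H3K27Ac at TCF7L2 had 4 peaks in each list, all inside the gene. Over the promoter the height was 18 tags with vehicle and 22 with DHT. In intron 3 it was 29 and 22 tags, under the tallest TCF7L2 peak in intron 5 it was 19 and 16, and further into intron 5 it was 11 and 16. The tallest of these stood at percentile 61.7 among vehicle peaks and 47.2 among DHT peaks. Among the 176 genes with 12 or more TCF7L2 peaks, of which neighbors share windows, the median tallest vehicle H3K27Ac peak was 75 tags (quartiles 52.8 and 102), and 14 genes lay below the 29 tags of TCF7L2. That set was chosen after the values of TCF7L2 had been seen.

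Of the 12 TCF7L2 peaks, 2 overlapped H3K27Ac, the promoter peak and the one of 130 tags, in both lists. Among all TCF7L2 peaks over 100 tags, 26.8% lay over a vehicle H3K27Ac peak. Here 1 of the 2 member peaks over 100 tags did so, over acetylation of 19 tags.

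TCF7 (chr5:133450372-133487556, plus strand), the T-cell factor gene, had 3 TCF7L2 peaks. They measured 39 tags over the promoter (27.7 to 53.3), 91 tags in intron 3 (73.3 to 112) and 33 tags over the promoter of SKP1, an adaptor of SCF ubiquitin ligases 63.2 kb downstream. No H3K27Ac peak lay between the gene's ends in either list. Of the 3566 genes with a TCF7L2 peak over a promoter, 11.8% had no H3K27Ac peak over a promoter in either list, and TCF7 was among those 420. The acetylation of its window belonged to neighbors: the SKP1 promoter with 53 tags for vehicle and 63 for DHT, and the gene of the phosphatase subunit PPP2CA with 11 tags in both. A further vehicle peak of 9 tags inside SKP1 lay under the same DHT peak as the promoter one.

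LEF1 (chr4:108968701-109090112, minus strand) had 3 TCF7L2 peaks, none over its promoter. Intron 3 held peaks of 60 tags (45.8 to 77.2) and 29 tags (19.4 to 41.6), both inside 1 H3K27Ac peak of 50 tags with vehicle and 46 with DHT. Intron 11 held a peak of 36 tags (25.2 to 49.8) with no acetylation. H3K27Ac at LEF1 was spread over 9 vehicle and 8 DHT peaks, 6 of each inside the gene, and the promoter peak was among the lowest with 13 and 18 tags. The intron 3 peak was thus the tallest acetylated stretch of the gene in both lists and also its main site of TCF7L2.

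CTNNB1 (chr3:41236232-41301587, plus strand) had 3 TCF7L2 peaks. The promoter peak of 35 tags (24.4 to 48.7) lay over H3K27Ac of 25 tags with vehicle and 34 with DHT. Past the end of the gene, inside ULK4, a kinase-family gene, stood peaks of 36 tags (25.2 to 49.8) and 51 tags (38.0 to 67.1) without acetylation. The 3 heights overlapped in their intervals.

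TCF7L1 (chr2:85360515-85537510, plus strand) had 3 TCF7L2 peaks of 20, 22 and 19 tags, in intron 3, in intron 4 and over the shared promoter of RETSAT (retinol saturase) and ELMOD3. None was among the 15000 tallest of the list, where 18 of the 24 member peaks stood. Its promoter held no peak in any of the 3 lists. Inside the gene the only acetylation was 1 peak in intron 3, with 20 tags for vehicle and 17 for DHT.

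By their median, the TCF7L2 peaks were tallest at TCF7L2 with 52.0 tags (17.0 to 130), followed by TCF7 with 39.0 (33.0 to 91.0), LEF1 with 36.0 (29.0 to 60.0), CTNNB1 with 36.0 (35.0 to 51.0) and TCF7L1 with 20.0 (19.0 to 22.0). The ranges of the first 4 overlapped, and that of TCF7L1 lay inside the range of TCF7L2 and below those of TCF7, LEF1 and CTNNB1. Over all 24 peaks the median was 37.5 tags, beside 31.0 over all TCF7L2 peaks of the list.

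**Figure D2:**
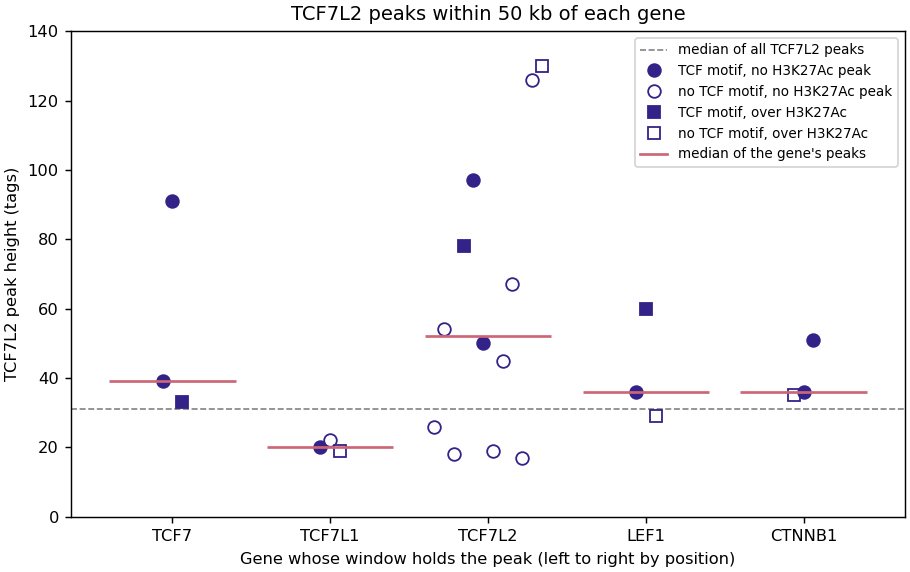
Height in tags of the 24 TCF7L2 peaks by gene, each gene's peaks from left to right by position, with the gene's median as a red line and the median of all TCF7L2 peaks, 31.0 tags, dashed. Filled symbols have a TCF motif within 100 bp of the center and squares lie over a vehicle H3K27Ac peak. The open symbols at 126 and 130 tags at TCF7L2 have no motif there, and all 3 peaks of TCF7 are filled.

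The share of TCF7L2 peaks over acetylation was near that of the whole list. Of the 24 TCF7L2 peaks, 7 (29.2%, Wilson 95% interval 14.9 to 49.2) shared at least 1 bp with a vehicle H3K27Ac peak, against 32.6% of all TCF7L2 peaks. The same 29.2% was found with the DHT list, against 33.2%. Each of the 7 lay over a peak present in both lists.

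The TCF motif was found within 100 bp of the center of 11 of the 24 peaks (45.8%, 27.9 to 64.9), against 35.0% of all TCF7L2 peaks, a share inside that interval. The form CTTTGAT alone was found in 5 (20.8%) against 13.2%. In windows of the same length 500 bp away the motif occurred in 5 (20.8%) of the members' and 14.3% of all. As a control, the reordered letters TTCNGTN, with N again A or T, occurred in 5 member peaks (20.8%) and in 13.3% of all. By gene, the motif was in 3 of 3 peaks at TCF7, 2 of 3 at LEF1, 2 of 3 at CTNNB1, 1 of 3 at TCF7L1 and 3 of 12 at TCF7L2. The 3 of 12 at TCF7L2 (25%, 8.89 to 53.2) have an interval that holds the share of all peaks. In the windows 500 bp away from these peaks the motif was also found in 3 of 12. At this gene it was therefore no more frequent at the centers than beside them.

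Among all TCF7L2 peaks over 100 tags, 47.3% had the motif, and neither of the 2 at TCF7L2 did. Over the whole peak rather than its center, the peak of 126 tags held 1 site and that of 130 tags held 0, where 44.5% of all peaks held at least 1. These 2 peaks were 900 and 960 bp wide, and the share of all peaks was not matched for width. The center is the midpoint of a peak and need not be its tallest point. TGACTCA, in either orientation, was within 100 bp of the center of 6 of the 24 peaks (25%, 12 to 44.9) and of 34.8% of all TCF7L2 peaks, against 0 and 3.76% in windows 500 bp away. The 6 were 3 at TCF7L2, with 26, 45 and 130 tags, and 1 each at TCF7L1, LEF1 and CTNNB1, with 20, 29 and 51 tags. Of these, 2 also held a TCF motif, and 9 of the 24 peaks held neither.

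The response to androgen was read from peaks of the 2 H3K27Ac lists that were each other's largest overlap. Over 49555 such pairs the median ratio of DHT to vehicle height was 1.07, and a pair was called when its ratio, divided by that median, passed 1.5 in either direction. Of 24 member pairs, 5 were called higher and 1 lower, against 11.4% higher and 9.32% lower over all pairs. Since 22 of the 24 had a mean height of at most 50 tags, where ratios of small counts scatter more, the same was read there, with 4 higher and 1 lower against 12.1% and 10.6% of such pairs. The Poisson intervals of both heights lay apart in 2 of the 24, both higher with DHT, against 5.47% of all pairs higher and 0.692% lower by that rule. It used heights not divided by the median ratio of 1.07, so it leans toward higher. The calls fell at CTNNB1, TCF7L1 and LEF1, and none at TCF7 or TCF7L2.

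At CTNNB1 all 6 pairs had a ratio above the median of all pairs. Over the promoter the height was 25 tags with vehicle and 34 with DHT (scaled ratio 1.27). In intron 1 the heights were 11 and 18 tags (1.53), 18 and 45 tags (2.33), and 16 and 24 tags (1.40). Around exon 10 they were 40 and 50 tags (1.17), and at -46.5 kb from the start 10 and 23 tags (2.15). So 3 of the 6 were called higher, all of them from a vehicle height of 18 tags or less. Only the pair of 18 and 45 tags had intervals apart (10.7 to 28.4 and 32.8 to 60.2). Its DHT peak was 6480 bp wide and also covered a second vehicle peak of 22 tags, against which the scaled ratio was 1.91 and the intervals overlapped (13.8 to 33.3 for the vehicle peak). The paired vehicle peak shared 31.0% of the DHT peak, and the call was lost when pairs had to share at least 50% of each peak.

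The DHT list alone had 2 low peaks at CTNNB1, of 10 tags upstream and 13 tags near the end of the gene. Of 6473 genes with at least 6 pairs, 4.08% had all of them above the median ratio. That count was made after the pattern had been seen and over genes whose windows overlap. It includes genes with more than 6 pairs, which have to meet the condition at more peaks. The share among genes with exactly 6 pairs, as at CTNNB1, was not computed and may be larger. The direction was the same at the 6 paired peaks of the beta-catenin gene, and 5 of the 6 pairs had overlapping intervals, all 6 when the merged DHT peak was set against the 22-tag vehicle peak.

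At TCF7L1 the only called pair lay outside the gene, 207 kb from its start. The vehicle peak stood between TGOLN2, which encodes a trans-Golgi membrane protein, and RETSAT, and the DHT peak reached into RETSAT. There the height was 43 tags with vehicle (31.1 to 57.9) and 92 with DHT (74.2 to 113), a scaled ratio of 2.0 with intervals apart. The promoter of TGOLN2 had 39 and 50 tags (1.20) and that of RETSAT and ELMOD3 29 and 35 (1.13). The pair inside TCF7L1 had 20 and 17 tags (0.793). An assignment of the called peak to TCF7L1 rests on the window alone.

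At LEF1 the 8 pairs went both ways. In intron 8 the height was 13 tags with vehicle and 26 with DHT (scaled ratio 1.87, called higher), and at -42.5 kb from the start it was 36 and 22 tags (0.570, called lower). The intervals overlapped in both. The pair of 21 and 15 tags in intron 3 had a scaled ratio of 0.667, at the threshold and not past it. The promoter pair had a scaled ratio of 1.29 and the tallest intron 3 pair 0.859.

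At TCF7L2 the scaled ratios of the 4 pairs were 1.14 over the promoter, 0.708 in intron 3, and 0.786 and 1.36 in intron 5. At TCF7 those of the neighbors' 2 pairs were 1.11 and 0.933. All 6 lay within the threshold, and their intervals overlapped.

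**Figure D3:**
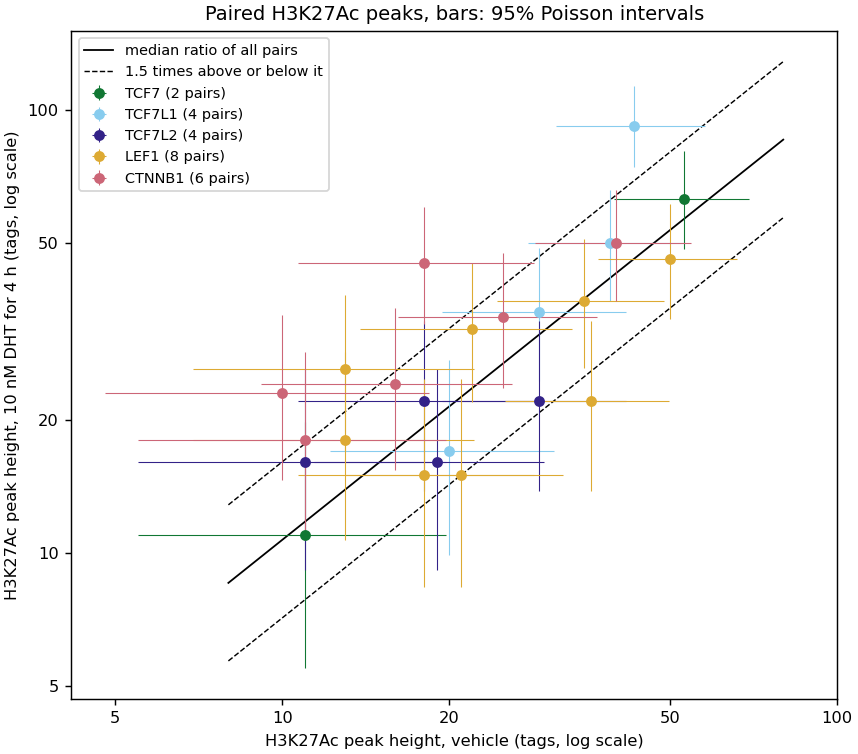
H3K27Ac peak height with DHT against that with vehicle, both in tags on log axes, for the 24 pairs in the windows of the 5 genes, with 95% Poisson intervals as bars. The solid line is the median ratio of all pairs, 1.07, and the dashed lines are 1.5 times above and below it. All 6 CTNNB1 points lie above the solid line, and the TCF7L1 point at 43 and 92 tags lies farthest from the other points.

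The tallest H3K27Ac peak of each window was also placed by its percentile in its own list. The lists differ in length and lowest height, so that 22 tags stood at percentile 50.4 with vehicle and 47.2 with DHT, and 11 tags at 15.3 and 9.07. An unchanged height of 22 or 11 tags thus falls by a few points. Each shift is therefore given with its percentile among all genes, which carry the same difference between the lists. From vehicle to DHT it moved by 18.5 points at TCF7L1 (percentile 96.5 among all genes with a peak in both lists), 5.27 at CTNNB1 (82.7), 3.11 at TCF7 (73.4), -4.88 at LEF1 (12.3) and -14.5 at TCF7L2 (3.01). The Poisson intervals of the 2 heights overlapped at each gene but TCF7L1. A percentile point covers fewer tags at low heights: 29 to 22 tags gave -14.5 points at TCF7L2, and 53 to 63 tags gave 3.11 at TCF7. A gene whose tallest peak is low can thus stand far out among genes by a few tags, and 3.01 is not by itself a sign of androgen response. The shifts follow the tallest peak of the window, whatever gene it lies in. For TCF7L1 that is the peak near RETSAT, and the shift was -11.2 with 10 kb on each side and 0.213 with 100 kb. For TCF7L2 it is the intron 3 peak with vehicle, while with DHT the intron 3 and promoter peaks were tied at 22 tags, and the promoter peak alone moved by 5.81. The shifts of TCF7 and LEF1 also changed sign with other windows or peaks, and that of CTNNB1 was above 0 in each alternative.

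Across the beta-catenin pathway, 5 lists of 49 genes were compared in the same way. A TCF7L2 peak lay in the window of 42 of 49 (85.7%) and over a promoter of 17 of 49 (34.7%), beside 66.8% and 17.7% of all genes. By list, the promoter counts were 4 of 10 genes of the destruction complex, 6 of 11 nuclear coactivators, 4 of 12 nuclear inhibitors and corepressors, 3 of 8 genes of cadherin and catenin adhesion, and 0 of 8 SOX genes, which share the HMG box with TCF/LEF. The median tallest TCF7L2 peak was 35.5, 59.0, 49.5, 52.5 and 40.0 tags in these lists, 60.0 in the 5 TCF/LEF and beta-catenin genes and 27 over all genes, those without a peak counted as 0. H3K27Ac lay over a promoter of 39 of the 49 with vehicle and 38 with DHT, against 53.3% and 54.5% of all genes. The 49 were not matched to all genes for acetylation, gene length or number of promoters. No preference of TCF7L2 for the pathway can thus be read from its shares.

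In the destruction complex the tallest TCF7L2 peaks were at AXIN2, the scaffold that is itself a Wnt target, with 225 tags and 17 peaks, and at CSNK1A1, casein kinase 1 alpha, with 164 tags. FBXW11, a ubiquitin ligase receptor for beta-catenin, had 22 tags and the APC-binding AMER1 none. Among coactivators, the chromatin remodeler SMARCA4 had 196 tags and BCL9L, which bridges beta-catenin to Pygopus, 140, while the acetyltransferases CREBBP and EP300 and the Mediator subunit MED12 had no TCF7L2 peak in the window. The windows of coactivator genes thus ranged from none to 196 tags. Over a promoter, SMARCA4 had 40 tags and BCL9L 20.

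Among inhibitors the corepressors CTBP2 and TLE3 led with 122 and 76 tags, and TLE4 and the deacetylase HDAC1 had none. In the adhesion list the actin-linking VCL had 139 tags and CTNND1, p120 catenin, 93, with 19 at the N-cadherin gene CDH2 and 21 at CTNNA2, a neural alpha-catenin. Of the SOX genes, SOX9 had 160 tags and SOX13 114, with 20 at SOX17 and none at SOX5. TCF7L2 with 130 tags stood below AXIN2, CSNK1A1, SMARCA4, BCL9L, VCL and SOX9 on this scale. It takes the tallest peak within 50 kb, so assignment to the named gene mostly rests on the window alone. At TLE3 the tallest peak, of 76 tags, lay over a promoter. Promoter peaks below the tallest stood at AXIN2 (162 tags), CSNK1A1 (107), CTNND1 (29), VCL (20) and CTBP2 (18), and SOX9 and SOX13 had none.

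Few promoter pairs were called, in the pathway as over all genes. Of 38 paired promoter peaks 1 was called higher and 1 lower, against 2.59% and 0.798% of all paired promoter peaks. BTRC, the F-box protein that binds phosphorylated beta-catenin, had 18 tags with vehicle and 29 with DHT, a scaled ratio just past the threshold. HBP1, an HMG-box repressor of Wnt targets, had 68 tags with vehicle and 44 in the paired DHT peak (0.604), but another DHT peak over its promoters had 82 tags, so the call rests on how the peaks were split. The median scaled ratio of the 38 was 1.05, beside 1.06 over all promoter pairs, and the 3 member promoters with a pair, TCF7L2, LEF1 and CTNNB1, had 1.14, 1.29 and 1.27, none of them called.

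**Figure D4:**
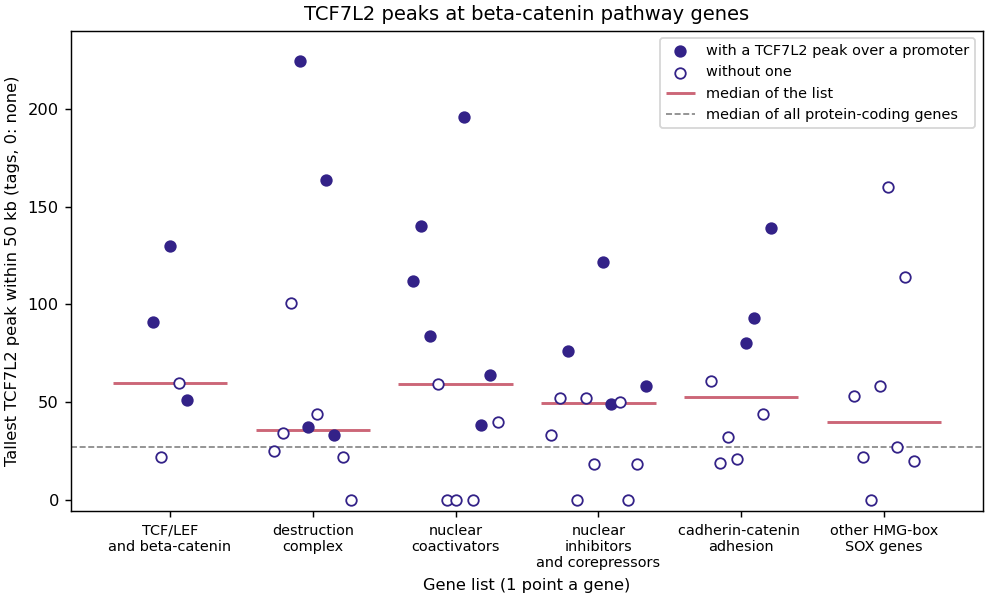
Tallest TCF7L2 peak within 50 kb of each gene, in tags with 0 for none, by gene list, with 1 point a gene. Filled points have a TCF7L2 peak over a promoter, red lines are list medians and the dashed line is the median of all protein-coding genes, 27 tags. TCF7L1 is the lowest of the 5 TCF/LEF and beta-catenin genes with 22 tags, and no SOX gene is filled.

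Finally, each member was set beside the genes most like it in the percentiles of the tallest vehicle, DHT and TCF7L2 peak, by Euclidean distance over these 3 values. Nearest to TCF7L2 were ANXA1, UNC5B and SH2D4B, at 1.38 to 2.88 percentile points, each with a tall TCF7L2 peak (119 to 129 tags) and H3K27Ac of 31 tags or less. Nearest to TCF7 were SYNJ1, FOSL2 and PLA2G4E (0.680 to 1.55), to TCF7L1 SIRT1, CLIC6 and MKRN2 (1.59 to 3.26), and to LEF1 DCANP1 and TIFAB, which share a window, and MTLN (1.16 to 1.87). Nearest to CTNNB1 were PLEKHA8 and the neighbors C11orf68 and DRAP1 (1.26 to 1.47). The 3 genes near TCF7L1 had 43 to 46 tags with vehicle and 81 to 89 with DHT. Such likeness, there and at the genes near TCF7L2 and the other members, is selected by the measure itself.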

How the data were processed

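ChIP-seq was made from LNCaP cells with antibodies to H3K27Ac (vehicle and DHT) and to TCF7L2, 1 library each; an input library was not analysed here. The authors deposited 1 peak list per library, in which the signal is the peak height in whole tags, with no scaling to the number of reads stated. By the study's methods Sole-search called the peaks, more strictly for H3K27Ac. Alignment to hg19 was with Bowtie 2 (H3K27Ac) and ELAND (TCF7L2). The submitters' processing notes name CASAVA 1.8.2, Bowtie2 and BWA, so the aligner is not settled. Serum for TCF7L2 was 10% FBS by the labels, and the study's methods give another percentage. Lowest heights were 9 tags (vehicle), 10 (DHT) and 15 (TCF7L2), so lower signal is not listed.

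Gene spans, exons and MANE Select transcripts came from a GENCODE annotation lifted to GRCh37. The sequence was read with pyfaidx 0.9.0.4, and calculations used Python 3.11.15 with numpy 2.4.6 and pandas 2.3.3. Of 81 listed genes 80 were matched by symbol. Members and lists were chosen with earlier results of these data known. In each pathway list the text names the genes with the 2 tallest and the 2 lowest TCF7L2 peaks (ties and genes without a peak included) and those with a called promoter pair. Pairing, calling, overlap and motif search were checked on simulated peaks. Intervals cover counting error only, as tags may include PCR copies. Coordinates are as in the lists.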

Additional observations from a re-analysis of the deposited data

How the results depend on the processing

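With 1 library per condition, no replicate could be left out, and no paired analysis was possible because each group holds 1 library. With 10 kb on each side the members had 18 vehicle H3K27Ac peaks, 3 pairs called higher and 0 lower, and 1 of the 4 members with a value moved up in rank; with 100 kb they had 40 DHT peaks and 2 pairs called lower. Among the 25000 tallest H3K27Ac peaks, 9 vehicle and 10 DHT peaks remained in the windows. The smaller alternative fold called 10 pairs higher and 6 lower, and a fold of 2 called 2 higher and 0 lower. Requiring Poisson intervals of the unscaled heights to lie apart, a rule added after seeing the data, left 2 higher and 0 lower. The class of pairs of at most 50 tags and the ratio to the 22-tag vehicle peak at CTNNB1 were also chosen after seeing the data. The form CTTTGAT and the reordered motif each gave 20.8% in place of the motif share. Rank shifts turned to -0.441 (100 kb) and -3.55 (summed height) at TCF7, -11.2 (10 kb) at TCF7L1, where 100 kb gave 0.213 and summed height 7.85, 5.81 (promoter peak) at TCF7L2, and 9.88 (100 kb) and 12.8 (promoter peak) at LEF1; the cause of these changes was not tested.

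At TCF7L1 the count of TCF7L2 peaks went from 3 to 0 among the 15000 tallest. The summed number of TCF7L2 peaks, that of pathway genes with one and the share of peaks over H3K27Ac stayed within 1.5 times, or within their intervals, under each alternative tried for them. Heights of 10 to 50 tags limit single ratios, and peaks under the lists' minimum are not seen.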
